A study of Mus musculus with 8 samples.

Results

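The probes of mouse chromosomes 3, 17 and 19 on a genome-wide DNA copy number array are described here in 6 liver tumours and 2 non-tumour livers. They were taken by position, as every probe that the array annotation places on one of these chromosomes. They number 28067 of 232626 probes with a position, with 12944 on chromosome 3, 8825 on chromosome 17 and 6298 on chromosome 19. They were chosen by their mean levels in tumour 5, where all 3 were raised, so the levels of tumour 5 are given as a description and no test is made on them.

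The study asked which genomic regions were gained or lost in hepatocellular carcinomas of FEAT transgenic mice, FEAT being a methyltransferase-like protein. All 8 animals were male C57BL/6 mice. The tumours, numbered 1 to 6, came from FEAT mice aged 16, 21, 20, 18.5, 22 and 12 months. The first non-tumour sample was the liver of a FEAT mouse aged 13 months, and the other was the liver of a wild-type mouse aged 6 months, with 1 sample in each of these groups. Every array compared its test DNA, labelled with Cy3, with Cy5-labelled DNA from the normal liver of a wild-type male aged 6 months, so all 8 arrays share that reference. The promoter that drives the transgene was not given in the sources used here.

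Hepatocellular carcinoma, the main cancer arising from liver cells, often carries extra or missing copies of whole chromosomes or chromosome arms, as well as short gains and losses that can hold a single gene. In array comparative genomic hybridisation, a region with more copies in the test DNA gives a higher ratio of test to reference signal, and a region with fewer copies gives a lower one. In a piece of tissue, a change in few cells and a smaller change in every cell cannot be told apart.

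Levels are mean log2 ratios of test over reference DNA, with each array centred on the median of its autosomal probes, so that 0 is the middle of that array's autosomes. One extra copy in every cell of a diploid sample would give 0.58 on this scale. The spread of single probes around their neighbours was 0.26, 0.23, 0.32, 0.49, 0.22 and 0.36 in tumours 1 to 6, 0.33 in normal FEAT liver and 0.22 in wild-type liver. Tumour 4 was thus the noisiest array and tumour 5 among the quietest. Genome positions are those of the array annotation, whose build and strand are not given in the sources used here.

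The probes below are shown because the short loss and the 2 deviating spans of chromosome 3 described later rest on such oligonucleotides. The first 5 lie in A630047E20Rik. The Hdgf probe lies in a span that was below the mean of chromosome 3 on every array. The AK021078 probe lies in a span that was above that mean on every array. G and C are in capitals, since levels along these chromosomes varied with the G and C content of the probes.
A630047E20Rik probe at chr3:132493230-132493289: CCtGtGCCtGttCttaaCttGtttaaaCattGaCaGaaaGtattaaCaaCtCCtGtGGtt
A630047E20Rik probe at chr3:132502402-132502461: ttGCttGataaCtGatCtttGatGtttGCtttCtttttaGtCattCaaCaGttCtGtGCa
A630047E20Rik probe at chr3:132510892-132510951: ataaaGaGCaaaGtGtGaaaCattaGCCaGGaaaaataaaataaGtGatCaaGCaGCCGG
A630047E20Rik probe at chr3:132523965-132524022: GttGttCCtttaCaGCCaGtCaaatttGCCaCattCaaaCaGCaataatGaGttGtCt
A630047E20Rik probe at chr3:132529189-132529248: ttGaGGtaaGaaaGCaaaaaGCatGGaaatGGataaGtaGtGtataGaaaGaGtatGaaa
Hdgf probe at chr3:88022037-88022096: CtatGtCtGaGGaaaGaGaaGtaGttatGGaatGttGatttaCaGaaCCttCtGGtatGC
AK021078 probe at chr3:113355246-113355305: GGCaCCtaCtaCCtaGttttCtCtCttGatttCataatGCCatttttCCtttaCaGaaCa

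In tumour 5 the 3 chromosomes were raised to similar levels along their probed length, apart from a short lost segment on chromosome 3. Chromosome 3 was at 0.195, chromosome 17 at 0.186 and chromosome 19 at 0.159, ranks 3, 4 and 5 among the 19 autosomes of that tumour. Chromosome 1 was the highest at 0.322, and 7 autosomes lay at or below -0.1. The level of chromosome 3 equals a test to reference ratio of 1.15.

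Chromosome 3 had levels of 0.068, 0.039, 0.046, -0.024, 0.195 and 0.019 in tumours 1 to 6, against 0.0078 in normal FEAT liver and 0.034 in wild-type liver. Tumour 5 was the highest array by 0.127 over tumour 1, and the other 5 tumours overlapped the non-tumour livers. Chromosome 17 had 0.039, 0.015, 0.044, 0.125, 0.186 and 0.0061 in tumours 1 to 6, against -0.014 in normal FEAT liver and 0.012 in wild-type liver. Here tumour 4 was also high, 0.061 below tumour 5. Chromosome 19 had 0.029, -0.051, 0.032, 0.026, 0.159 and -0.020 in tumours 1 to 6, against -0.019 in normal FEAT liver and 0.011 in wild-type liver. Tumour 5 was again alone at the top, and tumour 2 was the lowest array, with chromosome 19 in place 18 of its 19 autosomes.

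**Figure D1:**
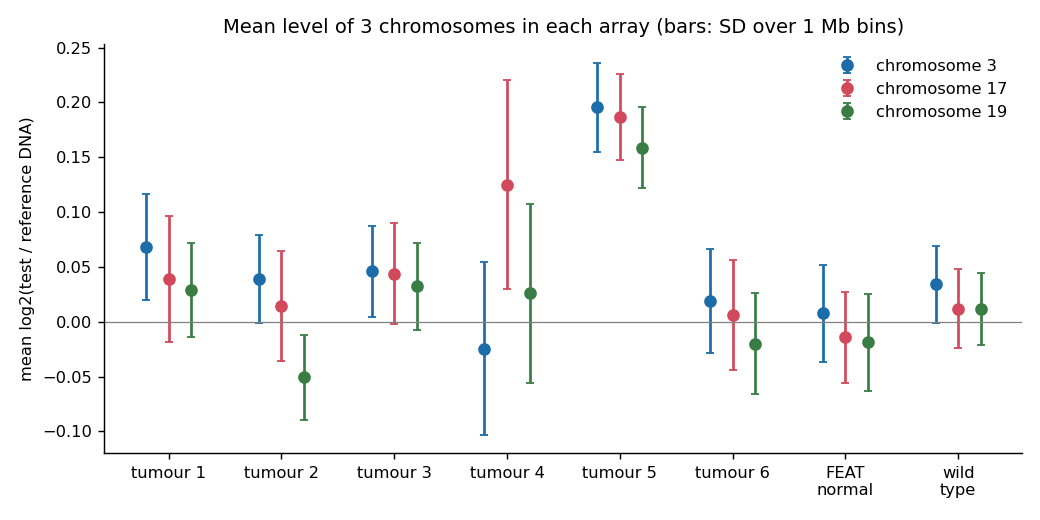
Mean log2 ratio (vertical axis) of chromosomes 3, 17 and 19 in each of the 8 arrays (horizontal axis). Points are means over probes and bars are the SD over 1 Mb bins. Tumour 5 holds the highest point of each chromosome, and tumour 4 the next on chromosome 17.

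**Figure D2:**
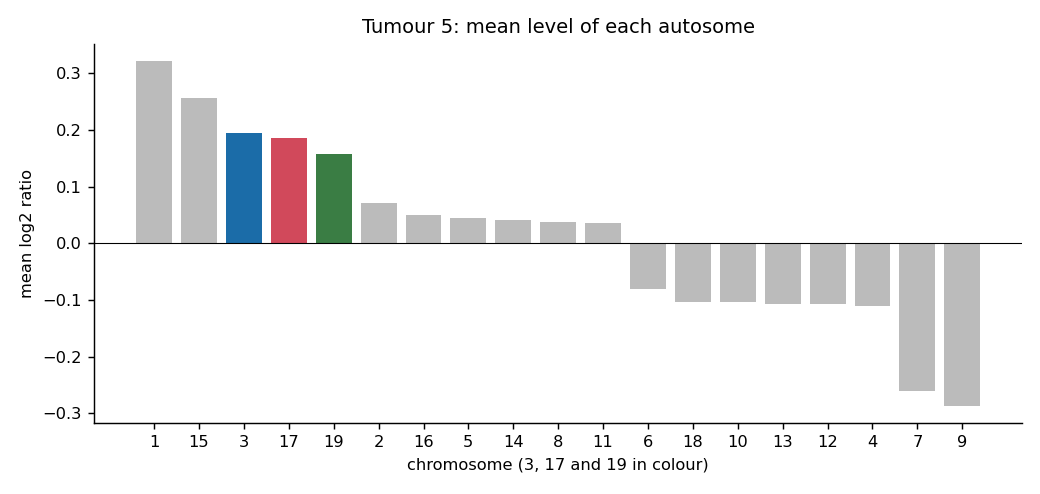
Mean log2 ratio (vertical axis) of each of the 19 autosomes in tumour 5, ordered by level, with chromosomes 3, 17 and 19 in colour. They rank 3, 4 and 5, at 0.195, 0.186 and 0.159.

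The raised level of tumour 5 did not come from a single stretch. With the probes of each chromosome divided into 4 successive stretches of equal number, chromosome 3 was at 0.212, 0.193, 0.182 and 0.195 in tumour 5. The stretches of chromosome 17 were at 0.184, 0.178, 0.187 and 0.197, and those of chromosome 19 at 0.139, 0.164, 0.170 and 0.161. In 1 Mb bins with at least 20 probes, tumour 5 was at or above 0.1 in 303 of the 307 bins of these chromosomes, beside 29.1% of all 2374 autosomal bins. It was above all 7 other arrays in 286 of the 307, beside 27% of autosomal bins. It was above both non-tumour livers in 307 of 307, beside 1209 of the 2374 autosomal bins. These counts describe the tumour that chose the chromosomes. On chromosome 17 tumour 5 was the highest array in 71 of 91 bins, fewer than the 157 of 157 on chromosome 3.

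Tumour 4, the noisiest array, was high on chromosome 17, which ranked 4 among its autosomes. Its level was at or above 0.1 in 66 of 91 bins of chromosome 17, in 12 of 157 bins of chromosome 3 and in 13 of 59 bins of chromosome 19. Together these are 91 of 307 bins, or 29.6%, near the 31.4% of all autosomal bins of that array. The stretches of chromosome 17 were at 0.127, 0.096, 0.114 and 0.163 in tumour 4. The order of the tumours on chromosome 17 depended on the centring: with arrays centred on the mode of their autosomal probes, tumour 4 was at 0.210 and tumour 5 at 0.208.

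**Figure D3:**
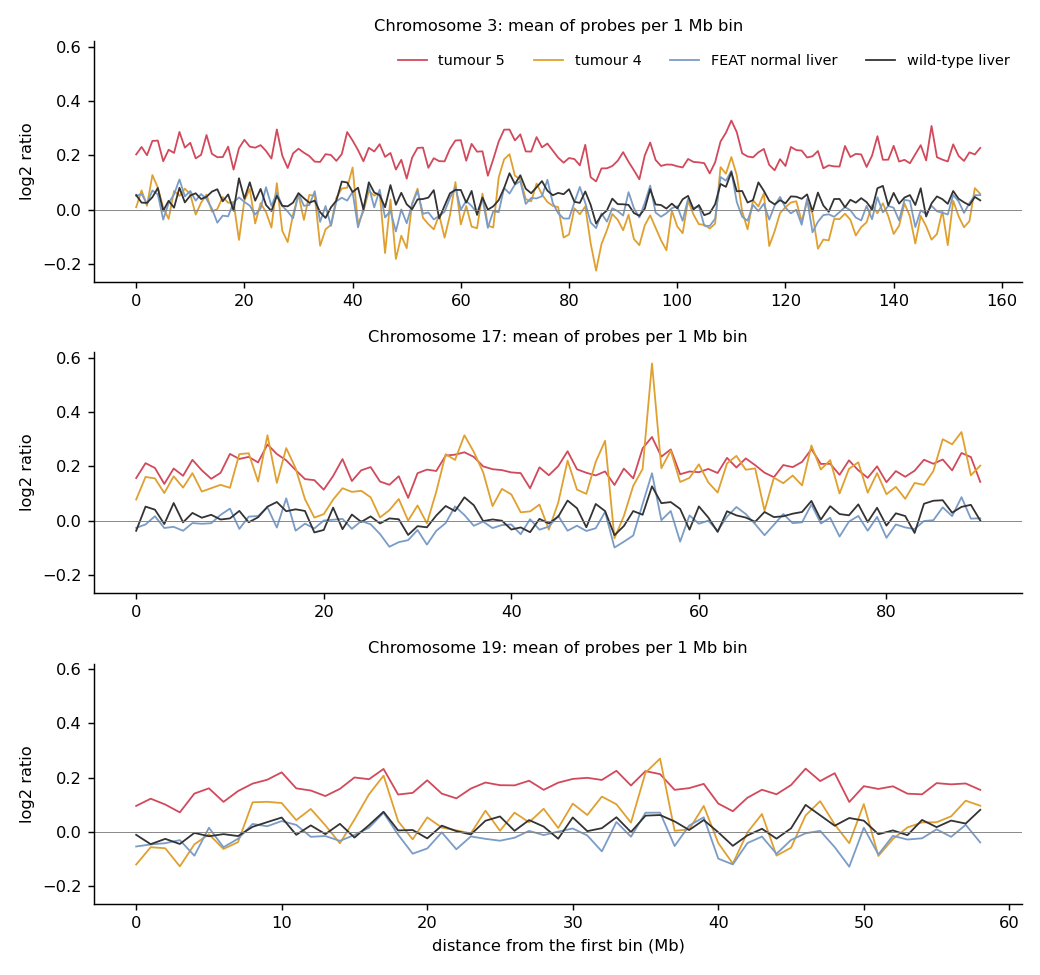
Mean log2 ratio per 1 Mb bin (vertical axes) against distance from the first bin in Mb (horizontal axes) for tumour 5, tumour 4, normal FEAT liver and wild-type liver. Tumour 5 stays above both non-tumour livers in all 307 bins, beside 1209 of 2374 autosomal bins. Tumour 4 comes near it on chromosome 17 and passes it in some bins.

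Without tumour 5, none of the 3 chromosomes passed the test between tumours and non-tumour livers. Chromosome 3 averaged 0.029 ± 0.035 in the 5 other tumours and 0.021 ± 0.019 in the non-tumour livers (SD, n = 5 and 2), a difference of 0.0084 with an SE of 0.029 and an adjusted p of 0.865 by limma over 21 chromosomes. Chromosome 17 averaged 0.046 ± 0.047 in the tumours and -0.0012 ± 0.019 in the non-tumour livers, a difference of 0.047 with an SE of 0.035 and a limma adjusted p of 0.844. Chromosome 19 averaged 0.0033 ± 0.037 in the tumours and -0.0036 ± 0.021 in the non-tumour livers, a difference of 0.0069 with an SE of 0.030 and a limma adjusted p of 0.865. The number of chromosomes past an adjusted p of 0.05 was 0 of 21 (0%), and at an unadjusted p of 0.05 it was also 0. Without tumour 4 the difference on chromosome 17 was 0.027.

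Among 1 Mb bins, limma called 0 of the 307 bins of these chromosomes, beside 0 of 2523 bins of the genome (0%). At an unadjusted p of 0.05 it was 1 of 307, beside 0.357% of all bins. That bin, from 25 to 26 Mb of chromosome 17, holds Grm4, a glutamate receptor gene. It was at 0.073, 0.071, 0.116, 0.120 and 0.046 in tumours 1, 2, 3, 4 and 6, against 0.0069 in normal FEAT liver and -0.031 in wild-type liver, with an adjusted p of 0.986 by limma. The tumours and the non-tumour livers did not overlap there, but the bin is shown because it passed the unadjusted limit, so this is no further evidence.

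Each array was divided into segments of constant level, and a segment at or above 0.2 was called gained and one at or below -0.2 lost. In tumour 5, 27.8% of the probes on these chromosomes lay in gained segments, beside 14.3% of all its autosomal probes. Long segments lay on both sides of that limit: the first 84.1 Mb of chromosome 3 were at 0.209 and the first 18.3 Mb of chromosome 17 at 0.201, while the last 27.3 Mb of chromosome 3 were at 0.198 and the last 59.6 Mb of chromosome 17 at 0.195. The gained share was 0.0686% in tumour 1, 0.0433% in tumour 2, 0.0430% in tumour 3, 0.0396% in tumour 4 and 0% in tumour 6, with 0% in each non-tumour liver. Over all autosomes those arrays had 4.2%, 0.0106%, 0.00548%, 5% and 0.00778% of probes in gained segments, with 0% in normal FEAT liver and 0.0156% in wild-type liver. Tumours 1 and 4 thus had few of their called gains here at this limit and centring, but the share of tumour 4 was 16.9% with mode centring or a limit of 0.1, and 5.85% with a penalty factor of 1 in place of 2. The lost share was 0.0253%, 0%, 0%, 1.36%, 0.0180% and 0% in tumours 1 to 6, with 0% in normal FEAT liver and 0.0180% in wild-type liver. Over all autosomes it was 10.1%, 0.0225%, 0.0178%, 0.585%, 11.5% and 0.022% in tumours 1 to 6, with 0.0332% in normal FEAT liver and 0.0023% in wild-type liver. Tumour 5 thus had called losses on other autosomes, while here its only lost segment held 5 probes.

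The 8 arrays held 49 segment boundaries on these chromosomes, 11, 10, 2, 8, 11 and 0 in tumours 1 to 6, against 0 in normal FEAT liver and 7 in wild-type liver. Thus 2 of the 8 arrays had none, and the wild-type liver, set against wild-type liver DNA, had 7. Boundaries with at least 100 probes on both sides numbered 31, of which 5 were in wild-type liver and 7 in tumour 5. After the values were corrected for the G and C content of the probes around them, boundaries of that kind numbered 3, all in tumour 1 and at other positions than before, and 0 in tumour 5. In tumour 5 the boundaries found after correction were the 4 around short segments at A630047E20Rik and Grm4. Corrected levels of the whole chromosomes in tumour 5 were 0.188, 0.192 and 0.160, in the order 3, 17 and 19.

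On 1 Mb bins of tumour 5, Pearson's r between level and probe G and C content was -0.29 on chromosome 3 (157 bins), -0.60 on chromosome 17 (91 bins) and -0.63 on chromosome 19 (59 bins). The same values in wild-type liver were -0.37, -0.58 and -0.44. The arrays share the reference DNA and neighbouring bins share sequence composition, so these are descriptions. Tumour 3 differed, with -0.08, 0.11 and -0.19.

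Chromosome 3 held a pair of spans that deviated the same way on every array. The first, chr3:87166421-89576855, runs through Cd5l and the lymphocyte receptor genes Fcrl1 and Fcrl5 to the interleukin 6 receptor gene Il6ra. It includes the lamin A gene Lmna. Its 407 probes had a mean G and C content of 37.6%. Their level minus that of the whole chromosome was -0.128, -0.083, -0.038, -0.180, -0.092 and -0.070 in tumours 1 to 6, against -0.066 in normal FEAT liver and -0.067 in wild-type liver. All 8 were below 0, and tumour 4 was the lowest, where 378 probes of the span were called lost at -0.215. That loss was no longer called after the correction for G and C content, with mode centring, with a penalty factor of 4 or at a limit of 0.3. The corrected level of the whole span was -0.123 in tumour 4, 0.133 in tumour 5 and -0.0017 in wild-type liver.

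The other span, chr3:111809502-114624942, has 122 probes with a mean G and C content of 35.9%. It holds the amylase gene Amy1, which encodes a starch-digesting enzyme, and Col11a1, a fibrillar collagen gene. Its level minus that of the chromosome was 0.0996, 0.0987, 0.0617, 0.213, 0.135 and 0.111 in tumours 1 to 6, against 0.131 in normal FEAT liver and 0.073 in wild-type liver. All 8 were above 0 and the groups overlapped, although the span was called gained, at 0.331, in tumour 5 alone. After the correction for G and C content its probes averaged 0.304 in tumour 5, but it was no segment of its own and the gain was no longer called.

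**Figure D4:**
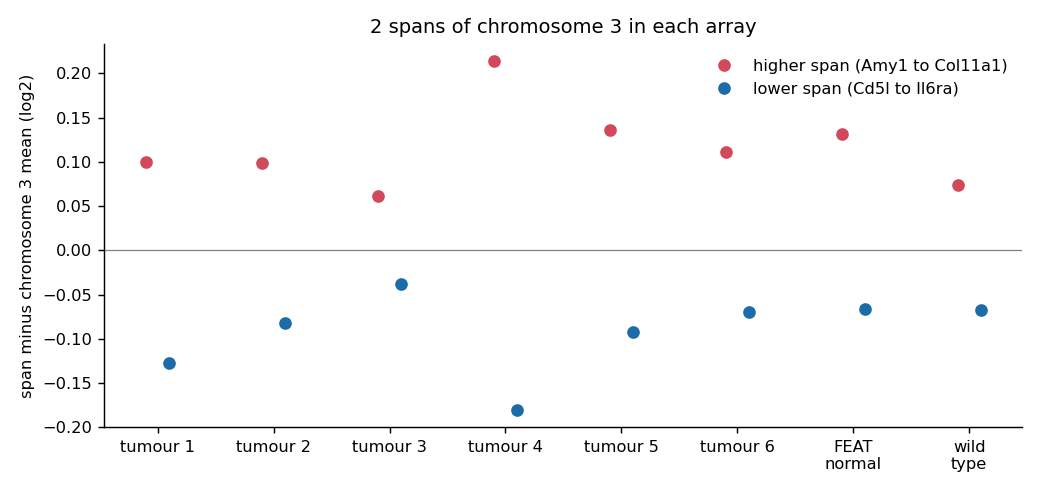
Level of 2 spans of chromosome 3 minus the mean of the chromosome (vertical axis, log2) in each of the 8 arrays (horizontal axis). The span with Amy1 and Col11a1 lies above 0, and the span from Cd5l to Il6ra below 0, in all 8 arrays.

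A short low segment lay within A630047E20Rik, listed by RefSeq (GRCm38.p6) as a synonym of Tbck, a gene for a TBC domain-containing kinase-like protein. Over the 6 probes of chr3:132493230-132529248 the level was -0.679, 0.209, 0.246, -0.843, -0.784 and -0.844 in tumours 1 to 6, against -0.021 in normal FEAT liver and -0.148 in wild-type liver. Tumours 1, 4, 5 and 6 were low, and tumours 2 and 3 were above both non-tumour livers. A lost segment was called in tumours 1 and 5. One of the 6 probes had a value in tumour 1 alone, so the levels rest on 5 probes elsewhere. The probe at chr3:132510892-132510951, printed above, read -0.982, 0.014, -0.042, -0.795, -1.17 and -1.16 in tumours 1 to 6, against -0.146 in normal FEAT liver and -0.088 in wild-type liver. The probe next to the segment on its right, at chr3:132534441-132534500, read 0.282 in tumour 5.

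**Figure D5:**
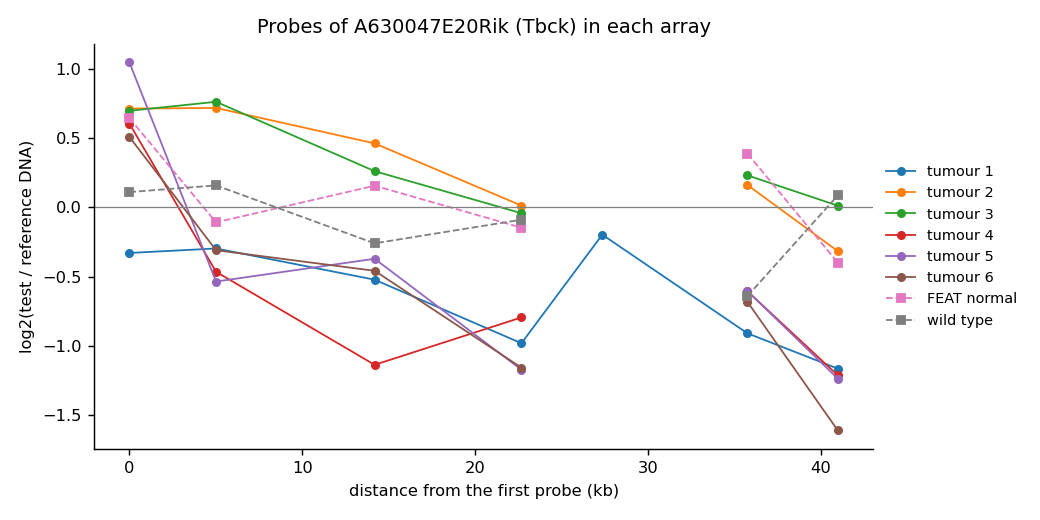
Log2 ratio (vertical axis) of the probes of the short segment in A630047E20Rik (Tbck) against distance from the first probe in kb (horizontal axis), with a line for each array. The lines of tumours 1, 4, 5 and 6 run low over the later probes, down to -1.61 in tumour 6.

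The other short segments lay at Grm4, Cd1d1 and Cxxc4. At Grm4 on chromosome 17, chr17:25489695-25630777, a gain was called in tumours 1 to 5, and 12 probes were at 0.950, 0.601, 1.06, 1.06, 0.696 and 0.608 in tumours 1 to 6, against 0.492 in normal FEAT liver and -0.060 in wild-type liver. Every FEAT animal was thus above the wild-type liver there. Over the 8 probes of chr3:87102582-87149144, at Cd1d2 and at Cd1d1, which encodes a lipid antigen-presenting molecule, a gain was called in tumour 1 alone. The levels were 0.735, 0.218, 0.616, 0.561, 0.276 and 0.218 in tumours 1 to 6, against 0.353 in normal FEAT liver and 0.367 in wild-type liver, so all 8 arrays were above 0 and the groups overlapped. At Cxxc4, a gene for an inhibitor of Wnt signalling, 5 probes of chr3:134002723-134037488 were called lost in wild-type liver alone, at -0.755, beside 0.051 in normal FEAT liver and -0.287 to 0.097 in the tumours.

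On chromosome 17, a span between BC011426 and Trip10 was bounded in tumours 2 and 4, but in neither after the correction for G and C content. It was at -0.068 over 259 probes in tumour 4, with the next segment, which starts near the guanine nucleotide exchange factor gene Vav1, at 0.174. In tumour 2 the segment was at -0.085 over 249 probes. The bin from 54 to 55 Mb was also low in arrays without these boundaries. It was at -0.065 in tumour 1, -0.046 in tumour 6, -0.099 in normal FEAT liver and -0.053 in wild-type liver. In tumours 3 and 5 it was at 0.027 and 0.132. The bin from 58 to 59 Mb, with 31 probes, was the highest of chromosome 17 in all 8 arrays. It was at 0.299, 0.232, 0.191, 0.579, 0.309 and 0.257 in tumours 1 to 6, against 0.175 in normal FEAT liver and 0.127 in wild-type liver. All 8 arrays were above 0 there, in a bin picked for its high level. The tumours were all above the non-tumour livers, but tumour 5 was so in all 307 bins. The share of bins with this order was not counted, so it is a description. On chromosome 19 the boundary of tumour 4 fell between Cd6, a T cell surface receptor gene, and the peptide transporter gene Slc15a3, with -0.074 before it and 0.046 after it. Tumours 1, 2 and 5 and the wild-type liver also had 1 boundary each on chromosome 19, at other positions, with the lower level before it. In wild-type liver the levels were -0.026 and 0.020. After the correction for G and C content no array had a boundary on chromosome 19.

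The genes of 3 lists were read as the mean of probes within 0.5 Mb. Of 85 listed genes 81 were found: 31 for growth and oncogenes, 24 for tumour suppressors and 26 for liver function. In tumour 5 the region was at or above 0.1 for 28 of 31, 23 of 24 and 25 of 26 of them, beside 98.7% of the 307 bins of these chromosomes and 29.1% of autosomal bins. The medians of the lists were 0.166, 0.175 and 0.174. The 3 lists thus had similar medians in tumour 5, which chose the chromosomes. In tumour 4, 15 of 81 regions were at or above 0.1, beside 29.6% of the bins here and 31.4% of autosomal bins, with 1 in normal FEAT liver and 0 in wild-type liver. Called gained segments of tumour 5 held 14 of the 81 genes, beside 27.8% of the probes of these chromosomes and 14.3% of autosomal probes, and those of the other 7 arrays held 0. After the correction for G and C content, gained segments of tumour 5 held 0.0432% of these probes.

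Among growth genes in tumour 5, Notch2, a receptor for cell contact signals, was highest on chromosome 3 at 0.226, and Mcl1, which blocks apoptosis, lowest at 0.142. On chromosome 17 Birc6, an inhibitor of apoptosis, was at 0.213 and the cyclin gene Ccnd3 at 0.118. On chromosome 19 the cytokine signalling kinase gene Jak2 was at 0.180 and Chuk, a kinase gene of the NF-kB pathway, at 0.082. All 6 were above 0, within the range of the chromosomes' bins.

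Among tumour suppressors in tumour 5, the NF-kB subunit gene Nfkb1 was at 0.195 and Bcl10, a gene for an adaptor of NF-kB signalling, at 0.161 on chromosome 3. On chromosome 17 Bak1, a gene for an apoptosis effector, was at 0.221 and the histone chaperone gene Daxx at 0.121. The 126 probes of the Bak1 region include the 12 of the short gain at Grm4, which were at 0.696 in tumour 5. The 2 probes of Bak1 itself were at -0.199. On chromosome 19 the death receptor gene Fas was at 0.199 and Men1, which encodes menin, at 0.070. The region of Men1 was the lowest of all 81 in tumour 5, and it was at -0.059, -0.129, -0.0027, -0.132 and -0.031 in tumours 1, 2, 3, 4 and 6, against -0.015 in normal FEAT liver and -0.050 in wild-type liver. Tumour 5 was the only array above 0 there. Men1 lies in the first segment of chromosome 19 in tumour 5, whose probes had a mean G and C content of 37.7%. That span was below the mean of the chromosome in every array. In tumour 5 it was at 0.101, and at 0.133 after the correction for G and C content.

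Among liver genes in tumour 5, the lipoprotein assembly gene Mttp was at 0.168 on chromosome 3, the lowest of its list there. The complement genes C3 and C2 were at 0.187 and 0.127 on chromosome 17. On chromosome 19 Aldh1a1, which oxidises retinaldehyde, was highest of all 81 at 0.232, and Scd1, a fatty acid desaturase gene, was at 0.088.

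List genes within 1 Mb of a boundary were Vav1, Vegfb, Tet2, Bak1, Tnf, Men1, C3, Cfb, C2, Fads1 and Fads2. Vegfb, a vascular growth factor gene, was at 0.098 in tumour 5, and Tet2, which encodes an enzyme that oxidises methylated cytosine in DNA, at 0.174. Tnf, an inflammatory cytokine gene, was at 0.141 and the complement gene Cfb at 0.128 in tumour 5. The fatty acid desaturase genes Fads1 and Fads2 were at 0.136 and 0.134 in tumour 5, and at -0.084 and -0.101 in tumour 4.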

How the data were processed

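Genomic DNA was hybridised to 2-colour Agilent 244A arrays. Per the series description, signals were extracted with Feature Extraction (version 9.1.3.1, read from the header of the one scanner file used) and analysed with CGH analytics 3.4. The deposited values are log2 ratios per spot. Per the file headers, Feature Extraction made the processed intensity of each dye with spatial detrending and dye normalisation, and from it the deposited log10 ratio of red over green. On the wild-type array the log2 values ran opposite to that ratio (r = -1), so they are test over reference. In the FEAT normal liver 6809 spots, and in tumour 3 305 spots, carried 1 identical deposited value. These spots were dim: on the wild-type array their median signal was 171 and 113, against 918 and 891 elsewhere. On the wild-type array all 315 spots with a scanner ratio of 0 had no deposited value, so the repeated values were set to missing. This was chosen after seeing the data.

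Spots of a probe were averaged, and the median of the autosomal probes was subtracted from each array. Segments came from penalised least squares (penalty factor 2, at least 5 probes), and this and the limma step were tested on simulated data. limma 3.58.1 (R 4.3.3) with Benjamini-Hochberg adjustment tested the 5 other tumours against the 2 non-tumour livers. Named genes were list genes within 1 Mb of a boundary, the highest and lowest of each list and chromosome in tumour 5, and genes at large steps or in called segments under 3 Mb. One gene that this rule names is not reported here. The members and the gene lists were chosen with earlier results of these data known. No label describes how replicates were sampled, and the number of arrays limits the precision.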

Additional observations from a re-analysis of the deposited data

Results flagged for a closer look

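In each of 34 sets of 6 tumour values (3 chromosomes, 6 short segments and 25 gene regions), the gap of the highest or lowest tumour to the next was compared with the whole range. In 5 sets the gap was over Dixon's limit, each time with tumour 5 highest. The chromosomes were chosen because tumour 5 was high there, so these gaps are a description and no test. The regions of Ccnd3 (0.118, next tumour 0.027), Vav1 (0.190, next 0.020), Bcl10 (0.161, next 0.050) and C3 (0.187, next 0.022) and the span with Amy1 (0.331, next 0.189) stood apart in this way. Vav1 and C3 lie near each other and share probes.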

How the results depend on the processing

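No paired analysis was made, because the labels pair no tumour with a non-tumour liver. Of 384 alternative values, 311 stayed within the limits set for them, 67 moved and 6 changed sign. In tumour 4, centring on the mode gave 0.060, 0.210 and 0.111 for chromosomes 3, 17 and 19, and medians of probes gave -0.069 for chromosome 3 and -0.014 for chromosome 19. The gained share of tumour 4 was 16.9% with mode centring and at a limit of 0.1, in place of 0.0396%, and its lost share of 1.36% was 0% after the correction for G and C content, with mode centring, at a penalty factor of 4 and at a limit of 0.3. Mode centring shifted tumour 4 by 0.085 and tumour 3 by 0.089. It put tumour 3 at 0.135, 0.133 and 0.121 on chromosomes 3, 17 and 19, and tumour 5 at 0.217, 0.208 and 0.180. In tumour 5 the levels ranged over settings from 0.165 to 0.217, 0.156 to 0.208 and 0.128 to 0.180 for chromosomes 3, 17 and 19. Its gained share of 27.8% was 99.98% at a calling limit of 0.1, 0.483% at 0.3, 60.9% with mode centring, 27.7% and 19.9% with penalty factors of 1 and 4, and 0.0432% after the correction for G and C content. That correction merged segments to levels below 0.2. The 11 boundaries of tumour 5 were 44 and 4 with penalty factors of 1 and 4 and 4 after the correction, and the 7 with 100 probes on both sides were 17, 2 and 0.

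Differences between tumours without tumour 5 and non-tumour livers had adjusted p values by limma of 0.592 to 0.999 over the alternatives. Against the wild-type liver alone they were -0.0047 on chromosome 3 and -0.0081 on chromosome 19, and with medians of probes -0.0081 and -0.012; the cause was not tested. Leaving out 1 tumour gave -0.0013 to 0.022 on chromosome 3, 0.027 to 0.057 on chromosome 17 and -0.00034 to 0.020 on chromosome 19. With the repeated values kept, the FEAT normal liver was at 0.017, -0.0051 and -0.0095 on chromosomes 3, 17 and 19. With tumour 5 in the fit the differences were 0.036, 0.070 and 0.033. The correction for G and C content, kept repeated values, centring on chromosomes 2, 5, 8 and 11 and the count of boundaries with 100 probes on both sides were chosen after seeing the data. Probe noise limits short segments most in tumour 4.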
